A study of Mus musculus with 12 samples.

Results

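The *Snrpn-Ndn-Magel2* domain of mouse chromosome 7 was examined in 4 ES cell lines through the probes of a CpG island array that lie between 66300000 and 69700000 of build mm9. By this position alone, 27 of the 88737 probes of the array belonged to the domain. The study asked whether mtDNA alters the methylation of a shared nuclear genome. All 4 lines carry the chromosomes of CC9.3.1, a line made from a 129SvEv-Gpi1c(129S6) embryo, and were made by fusing cytoplasts without a nucleus to CC9.3.1 cells depleted of their own mtDNA, with 1 line for each source of mtDNA. The mtDNA was that of *Mus musculus*, the parental type, in CC9 mus, while CC9 spretus held that of *Mus spretus*, CC9 dunni that of *Mus dunni* and CC9 pahari that of *Mus pahari*, and the last 3 are called the divergent lines here. Each line was represented by 3 replicate arrays, 12 in all, from undifferentiated cells kept off feeders for 48 h. Sonicated DNA was enriched with an antibody to 5mC (MeDIP), and the enriched fraction (IP, Cy5) was hybridised together with input DNA (Cy3). Values are log2 ratios of IP over input, centred on the median of the array, so that 0 is the middle of all probes of that array and not an absence of methylation. The arrays hold no RNA, and markers of ES cells could therefore not be checked.

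The domain is imprinted, that is, its genes are used according to the parent they came from. Maternal methylation of a control region at *Snrpn* is set in the germ line, and *Snrpn*, *Ndn*, *Magel2*, *Mkrn3* and *Peg12* are transcribed from the paternal chromosome. *Ube3a*, at the other end, encodes a ubiquitin ligase and is imprinted in neurons, where the maternal copy is used, and loss of gene function in the matching human region underlies the Prader-Willi and Angelman syndromes. An IP over input ratio adds both parental chromosomes together and cannot tell them apart.

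Joining probes at most 1000 bp apart gave 5 loci. No gene names came with the probes, so the loci were named from the stated place of *Ndn* and from the order of the genes in RefSeq, not by sequence. The *Ube3a* locus held 7 probes (66483973 to 66485067, mm9), the *Ndn* locus 6 (69493069 to 69493708), the *Magel2* locus 4 (69521963 to 69522409), the *Mkrn3* locus 4 (69564503 to 69564999) and the *Peg12* locus 6 (69608562 to 69609381). Between the *Ube3a* and *Ndn* loci, a stretch of 3.01 Mb that includes the stated place of the *Snrpn* promoter held 0 probes, and *Snrpn* was not analysed here. The loci nearest to each other thus lie at the *Ndn* end of the domain, with starts 28.9 to 44.1 kb apart.

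Before the genes, 3 features of the arrays bear on every value below. The SD of all log2 ratios was 0.53 on CC9 mus replicate 1 against 1.85 and 2.01 on CC9 mus replicates 2 and 3, and 1.09 to 1.38 on the other 9 arrays. All 3 CC9 mus arrays were scanned in a later period, on a day with no other line, whereas the divergent lines had replicates 1 and 2 scanned in an earlier period and replicate 3 in the later. On each array, between 23 and 27 of the domain's 27 probes had an IP signal well above background. Since every line has only 3 arrays, their number limits the precision.

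*Ndn*, which encodes a MAGE family protein of postmitotic neurons, had a locus mean above 0 on 12 of 12 arrays. The log2 ratio was 0.26, 1.33 and 1.88 on the CC9 mus arrays, 0.58, 0.16 and 1.01 on the CC9 spretus arrays, 0.50, 0.42 and 0.41 on the CC9 dunni arrays and 0.48, 0.41 and 1.07 on the CC9 pahari arrays, in the order of the replicate numbers. Replicates 2 and 3 of CC9 mus lay above the 9 arrays of the divergent lines and replicate 1 lay among the lowest of them. By line the mean was 1.16 ± 0.82 in CC9 mus, 0.65 ± 0.36 in CC9 pahari, 0.58 ± 0.42 in CC9 spretus and 0.44 ± 0.05 in CC9 dunni (SD, n = 3 for each), and the ranges of all 4 lines overlapped. CC9 mus exceeded the mean of the other 3 lines by 0.60 (standard error 0.31, limma adjusted p = 0.198). With a block for the scan period the difference was 0.33 (limma adjusted p = 0.527), and with equal spread, each array being scaled so that all have the same median absolute deviation, it was 0.14 (limma adjusted p = 0.686). Both together turned its sign, to −0.23 (limma adjusted p = 0.310), and without CC9 mus replicate 3 it was 0.24 (limma adjusted p = 0.661). The later arrays of CC9 spretus and CC9 pahari were the highest of their lines and that of CC9 dunni the lowest of its line, and together they had a mean of 0.83 ± 0.37 (SD, n = 3) against 0.43 ± 0.14 (SD, n = 6) in the earlier period.

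*Magel2*, the neighbour of *Ndn* and of the same protein family, gave 0.30, 1.23 and 0.52 on the CC9 mus arrays, 0.34, 0.14 and 0.49 on the CC9 spretus arrays, −0.28, −0.07 and 0.05 on the CC9 dunni arrays and 0.00, 0.03 and 0.54 on the CC9 pahari arrays. The CC9 mus arrays lay above all 3 CC9 dunni arrays and overlapped those of CC9 spretus and CC9 pahari. The line means ran from 0.68 ± 0.49 in CC9 mus over 0.32 ± 0.18 in CC9 spretus and 0.19 ± 0.30 in CC9 pahari to −0.10 ± 0.17 in CC9 dunni (SD, n = 3 for each). Among the 5 loci, this one had the lowest p for CC9 mus against the mean of the other lines, with a difference of 0.55 (standard error 0.21, limma unadjusted p = 0.0262, adjusted p = 0.111). The difference of CC9 dunni from CC9 mus was −0.79 (standard error 0.26, limma unadjusted p = 0.0118, adjusted p = 0.141). Over the alternatives it ran from −0.98 to −0.29, the latter with normexp background correction (limma adjusted p = 0.482). It was called only without CC9 mus replicate 1 (limma adjusted p = 0.0122), beside 42.2% of all loci. With a block for the scan period CC9 mus differed from the other lines by 0.32 (limma adjusted p = 0.339), and with equal spread as well by 0.13 (limma adjusted p = 0.500). The difference was 0.27 without CC9 mus replicate 2 (limma adjusted p = 0.429) and 0.18 with normexp background correction (limma adjusted p = 0.532), so its size depended on these choices.

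*Mkrn3*, which encodes a RING finger protein known from the timing of puberty, gave 0.28, 0.49 and −0.13 on the CC9 mus arrays, −0.15, −0.20 and 0.39 on the CC9 spretus arrays, −0.52, −0.33 and 0.12 on the CC9 dunni arrays and 0.01, −0.44 and 0.59 on the CC9 pahari arrays. All 4 lines overlapped, with means of 0.21 ± 0.31 for CC9 mus, 0.05 ± 0.52 for CC9 pahari, 0.01 ± 0.33 for CC9 spretus and −0.24 ± 0.33 for CC9 dunni (SD, n = 3 for each), which do not differ beyond their spread. In each divergent line the highest array was the one of the later scan period, and these 3 arrays had a mean of 0.36 ± 0.23 (SD, n = 3) against −0.27 ± 0.19 (SD, n = 6) in the earlier period. The difference of CC9 mus from the mean of the other 3 lines was 0.28 (standard error 0.25, limma adjusted p = 0.446). With a block for the scan period it was −0.15 (limma adjusted p = 0.611), so its sign depended on that term.

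*Peg12*, an intronless gene of the FRAT family of GSK3 binding proteins, gave 0.50, 0.80 and 0.68 on the CC9 mus arrays, 0.79, 0.28 and 0.35 on the CC9 spretus arrays, 0.45, 0.32 and −0.02 on the CC9 dunni arrays and 0.39, 0.37 and 0.23 on the CC9 pahari arrays. The locus mean was thus above 0 on 11 of 12 arrays, and only replicate 1 of CC9 spretus among the divergent lines reached the range of replicates 2 and 3 of CC9 mus. Among all loci, the mean percentile of *Peg12* by line ran from 65.2 in CC9 dunni to 76.7 in CC9 spretus. CC9 mus had a mean of 0.66 ± 0.15, followed by CC9 spretus with 0.47 ± 0.28, CC9 pahari with 0.33 ± 0.09 and CC9 dunni with 0.25 ± 0.24 (SD, n = 3 for each), where neighbours in this order overlapped. The CC9 mus arrays overlapped those of CC9 spretus and lay above those of CC9 pahari and CC9 dunni. The differences of CC9 pahari and CC9 dunni from CC9 mus were −0.33 and −0.41 (limma adjusted p = 0.299 and 0.233). Against the mean of the other 3 lines CC9 mus had a difference of 0.31 (standard error 0.16, limma adjusted p = 0.210). With a block for the scan period the difference was 0.48 (limma adjusted p = 0.133), with dim inputs left out it was 0.19 (limma adjusted p = 0.460) and with the median over the probes 0.14 (limma adjusted p = 0.694).

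*Ube3a* gave 0.25, −0.27 and −0.99 on the CC9 mus arrays, −0.24, −0.18 and −0.04 on the CC9 spretus arrays, −0.08, 0.03 and 0.09 on the CC9 dunni arrays and −0.07, −0.02 and −0.58 on the CC9 pahari arrays. The CC9 mus arrays held both the highest and the lowest of the 12 values. Their mean was −0.34 ± 0.62, below −0.22 ± 0.31 for CC9 pahari, −0.15 ± 0.11 for CC9 spretus and 0.01 ± 0.09 for CC9 dunni (SD, n = 3 for each), and the overlap covered all lines. The difference of −0.21 (standard error 0.23, limma adjusted p = 0.537) became 0.09 with equal spread (limma adjusted p = 0.815) and was −0.16 with a block for the scan period (limma adjusted p = 0.714).

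At a Benjamini-Hochberg adjusted p under 0.05, limma called 0 of the 5 loci for any difference among the 4 lines, beside 0% of all 14580 loci. It called 0 of the 5 for CC9 mus against the mean of the other 3 lines, beside 0% of all loci. It also called 0 of the 5 for each of CC9 spretus, CC9 dunni and CC9 pahari against CC9 mus, beside 0%, 0% and 0% of all loci. The unadjusted p was under 0.05 at 0, 1, 0, 1 and 0 of the 5 loci in these 5 limma comparisons, in the same order, and at 14.1%, 32.3%, 18.9%, 24% and 25.5% of all loci. The 0% over all loci depends on the processing. For CC9 mus against the other lines, limma called 13.8% of all loci with equal spread, 7.9% without centring, 4.97% with dim inputs left out, 7.96% with the replicate number as a block and 30% with equal spread and a block for the scan period, and 0 of the 5 in each of these fits. The comparisons share the CC9 mus arrays and are not independent of one another.

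By single probes, the comparison of CC9 mus with the mean of the other 3 lines called 1 of the 27 probes of the domain, while limma called 4.57% of all probes. At an unadjusted p under 0.05 there were 5 of the 27, beside 28.9% of all probes. At 20 of the 27 probes the fitted difference was above 0, as it was at 4 of the 5 locus means. Neighbouring probes of a locus can read the same fragments and are not independent. The median difference was 0.22 over the probes of the domain and −0.06 over all probes, and on arrays of equal spread 0.16 and −0.05. When CC9 mus was compared only with the 3 divergent arrays scanned in the later period, it was 0.01 over the domain and −0.20 over all probes, with 15 of the 27 probes above 0. For any difference among the 4 lines limma called 0 of the 27 probes, beside 0% of all probes, with 3 at an unadjusted p under 0.05, beside 13.6% of all probes. For CC9 spretus, CC9 dunni and CC9 pahari against CC9 mus limma called 0, 0 and 0 of the 27, beside 0%, 0% and 0% of all probes, with 1, 5 and 3 at an unadjusted p under 0.05, beside 17.1%, 23.4% and 20.7%. Among the 3 divergent lines, with a term for the scan period, limma called 0 of the 27 probes, beside 0.206% of all probes, and 5 had an unadjusted p under 0.05, beside 15.3% of all probes. Without that term it called 0, beside 0.0214%, and 1 had an unadjusted p under 0.05, beside 6.65%. With the term and 1 divergent array left out it called 0, beside 0.00676% to 0.418%. The unadjusted count was then 2 to 7, beside 11% to 18.8%.

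The called probe, A_68_P25169313, lies in the *Peg12* locus at chr7:69608667-69608711 (mm9). Its log2 ratio was 0.28, −0.28 and 0.13 on the CC9 mus arrays and lay between −1.13 and −0.46 on the 9 others, so the groups did not overlap. The line means were 0.04 ± 0.29 for CC9 mus, −0.96 ± 0.13 for CC9 pahari, −0.96 ± 0.15 for CC9 dunni and −0.68 ± 0.27 for CC9 spretus (SD, n = 3 for each). The difference was 0.91 (standard error 0.23, limma adjusted p = 0.0494), a value just under the threshold. The IP signal of this probe was well above background on 8 of the 12 arrays and the input signal on 11. Leaving out any 1 of the 12 arrays kept the difference between 0.79 and 1.07. The limma adjusted p was between 0.0692 and 0.116 in 11 of these fits, so that each of these 11 arrays removed the call. It was under 0.05, at 0.0236, only without CC9 mus replicate 1. In the 11 fits limma called 0% to 0.14% of all probes, against 4.57% with every array kept. With a block for the scan period the difference was 1.02 (limma adjusted p = 0.171), and with normexp background correction it was 0.54 (limma adjusted p = 0.199). The call was also lost without centring, where 5.83% of all probes were called, and within the later scan period, where 0% were. Replicates 1 and 2 share a slide in each of CC9 mus, CC9 dunni and CC9 pahari, as do replicate 3 of CC9 spretus and replicate 3 of CC9 dunni. With the slide as a random block (estimated correlation 0.254) the difference was 0.91 (limma adjusted p = 0.0823). The probe kept its call with equal spread (1.22, limma adjusted p = 0.0135), with equal spread and a block for the scan period (1.48, limma adjusted p = 0.00625), with the replicate number as a block (0.91, limma adjusted p = 0.0438), with the deposited ratios (0.91, limma adjusted p = 0.0490) and with outlier spots kept (0.91, limma adjusted p = 0.0494).

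The next probe along the locus, A_68_P25169314 at chr7:69608775-69608819, was the other one whose 3 CC9 mus arrays lay above the 9 others. It read 0.86, 1.08 and 1.52 on the CC9 mus arrays, 0.27, 0.46 and −0.58 on those of CC9 pahari, 0.37, 0.21 and −0.51 on those of CC9 dunni and 0.68, 0.17 and 0.60 on those of CC9 spretus. The difference was 0.97 (standard error 0.31, limma adjusted p = 0.0737). Both probes can read the same sonicated fragments and are not independent. In all, 2 of the 26 probes of the domain with a value on every array had CC9 mus above the 9 others, beside 3.78% of all such probes, and 0 had CC9 mus below them, beside 3.36%.

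Replicate 1 of CC9 mus, the array of small spread, decided much of what was called. Without it, limma called 7 of the 27 probes for CC9 mus against the mean of the other 3 lines, beside 40.4% of all probes, and 2 of the 5 loci, beside 50.3% of all loci. The called loci were *Ndn*, with a difference of 1.05 (limma adjusted p = 0.00603), and *Magel2*, with 0.74 (limma adjusted p = 0.0172). The largest of the 7 probe differences was a lower ratio in CC9 mus, −1.97 at A_68_P25158144 in the *Ube3a* locus (limma adjusted p = 0.00103).

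A 4-fold cutoff, 2 on the log2 scale and the size named in the study's methods, was also applied, here to the mean IP over input ratio of the 3 arrays of a line. The methods set it on ratios between samples and add a filter on Z-scores, which was not applied, so the counts below are not those of the study. In CC9 mus 1 of the 27 probes had a mean above 2, beside 9.39% of all probes, and 0 had a mean below −2, beside 3.25%. No probe of the domain passed in the divergent lines, that is 0 above and 0 below in CC9 spretus, beside 5.16% and 1.08% of all probes, and likewise 0 and 0 for CC9 dunni, beside 5.32% and 0.586%. The counts for CC9 pahari were 0 and 0, beside 4.71% and 0.124%. The probe above 2 was A_68_P25169129 in the *Mkrn3* locus, at chr7:69564808-69564852, with 0.81, 2.81 and 2.67 on the CC9 mus arrays. Its mean was 2.09 ± 1.12 in CC9 mus, 1.92 ± 0.87 in CC9 pahari, 1.45 ± 0.80 in CC9 spretus and 1.12 ± 0.36 in CC9 dunni (SD, n = 3 for each), values that overlapped between the lines.

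In each locus, the probes with the highest and the lowest mean over the 12 arrays are given here for their own range, since the brightness of a probe also depends on its sequence. At *Ube3a* these were A_68_P25158151, with log2 ratios from −0.64 to 1.61, and A_68_P25158147, from −2.28 to 0.07, the latter with an IP signal not well above background on CC9 mus replicate 3 and CC9 pahari replicate 3, its 2 lowest arrays. At *Ndn* they were A_68_P25168663, from 0.02 to 2.90, and A_68_P25168660, from −1.14 to 0.68 on the 11 arrays where its spot was usable. The *Magel2* locus had A_68_P25168851, from 0.02 to 2.24, and A_68_P25168850, from −1.80 to −0.14, the latter with an IP signal well above background on 7 arrays only. In the *Mkrn3* locus the highest was A_68_P25169129, the probe with a mean above 2 in CC9 mus, from 0.79 to 2.93, and the lowest A_68_P25169130, from −2.11 to 0.35, with an IP signal well above background on 3 arrays. In the *Peg12* locus the highest was A_68_P25169318, from 0.46 to 1.89, and the lowest the called probe, A_68_P25169313, from −1.13 to 0.28.

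A ratio has 2 parts, and the input part also differed between the lines. The input signal of the domain, as the mean log2 deviation of its probes from their own mean over the 12 arrays, was −0.42, −0.43 and −0.47 on the CC9 mus arrays, 0.16, 0.21 and −0.09 on those of CC9 pahari, 0.28, 0.33 and 0.00 on those of CC9 dunni and 0.18, 0.38 and −0.15 on those of CC9 spretus. All 3 CC9 mus arrays lay below the 9 others, by −0.58 between the means. This is a mean over few loci, and the share of equally small sets of loci with such a gap was not computed. For the other probes of chromosome 7, a mean over many more loci, the deviation was 0.06, 0.06 and 0.09 in CC9 mus and between −0.08 and 0.07 elsewhere. The IP signal of the domain deviated by −0.37, 0.14 and −0.49 in CC9 mus and by −0.20 to 0.28 on the other arrays. The 3 arrays of the divergent lines from the later scan period had the lowest input deviations of their lines, and against them the CC9 mus arrays differed by −0.36.

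By locus, the input of CC9 mus differed from that of the other lines most at *Peg12*, with a mean of −0.75 ± 0.24 (SD, n = 3) against 0.25 ± 0.26 (SD, n = 9), and by −0.69 at *Magel2*, −0.55 at *Ndn*, −0.43 at *Mkrn3* and −0.26 at *Ube3a*. Of the 14570 loci with a value on every array, 0.824%, 3.52%, 6.69%, 11.4% and 21.8% had a difference as low or lower, in the same order. Against the arrays of the later period alone, the differences were −0.73, −0.41, −0.20, −0.14 and −0.27, and 0.467%, 4.42%, 15.6%, 21.6% and 10.9% of loci were as low. The *Peg12* input was −0.65, −0.59 and −1.02 in CC9 mus and −0.22 or above on the 9 others. The groups were also apart at *Magel2* (highest CC9 mus array −0.47, lowest other array −0.26), *Ndn* (−0.39 and −0.25) and *Ube3a* (−0.11 and −0.04). At *Mkrn3* they overlapped (−0.25 and −0.29). The share of all loci with such a gap was not computed. The *Peg12* IP signal was lower as well, with deviations of −0.60, −0.06 and −0.84 on the CC9 mus arrays and a mean of −0.50 ± 0.40 (SD, n = 3) against 0.17 ± 0.41 (SD, n = 9) on the others and −0.35 ± 0.07 (SD, n = 3) on the later divergent arrays. The higher *Peg12* ratio of CC9 mus thus came with a lower IP and an input that was lower still. At *Ndn* the IP deviation was −0.89, 0.38 and 0.53 on the CC9 mus arrays, with replicate 1 below and replicates 2 and 3 above all others, and the mean was 0.01 in CC9 mus, 0.01 on the 9 others and −0.15 on the later divergent arrays. In the same order the means were −0.09, 0.03 and −0.10 at *Magel2*, −0.10, 0.03 and 0.09 at *Mkrn3* and −0.34, 0.11 and −0.01 at *Ube3a*. The input signal is also where a difference in copy number would appear, and copy number was not measured in any other way. Its part in these values was not tested, and scan day and line cannot be told apart for CC9 mus.

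For the sequence context, RefSeq promoters (GRCm38.p6) were found for all 6 genes of the domain. The 250 bases before the start of the gene held 24 CG pairs at *Ube3a*, 10 at *Mkrn3*, 8 at *Peg12*, 7 at *Magel2* and 5 at *Ndn*. The 4 entries for *Snrpn*, a gene with no probe here, held 3, 4, 3 and 2. Of 32851 promoters, 12% had at least as many as *Ube3a*, 37.8% as *Mkrn3*, 43% as *Peg12*, 46.3% as *Magel2* and 55.6% as *Ndn*, and for the entries of *Snrpn* the share was 62.2% to 81.2%. Antibody enrichment depends on the number of methylated CG pairs in a fragment, and the *Ube3a* window, the richest in CG, is shown beside those of *Ndn*, above 0 on every array, and *Peg12*, which held the called probe. The windows are chr7:59228500-59228749 (plus strand), chr7:62348027-62348276 (plus) and chr7:62464511-62464760 (minus) in GRCm38.p6, another build than that of the probes, and the probes were not placed on them. Each is written 5′ to 3′ with CG in capitals.
*Ube3a*: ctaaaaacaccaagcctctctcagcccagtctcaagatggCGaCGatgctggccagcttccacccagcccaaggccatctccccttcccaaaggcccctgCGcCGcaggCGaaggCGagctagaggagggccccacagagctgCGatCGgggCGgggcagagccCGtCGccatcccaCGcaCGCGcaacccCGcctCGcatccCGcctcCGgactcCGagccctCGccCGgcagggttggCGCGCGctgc
*Ndn*: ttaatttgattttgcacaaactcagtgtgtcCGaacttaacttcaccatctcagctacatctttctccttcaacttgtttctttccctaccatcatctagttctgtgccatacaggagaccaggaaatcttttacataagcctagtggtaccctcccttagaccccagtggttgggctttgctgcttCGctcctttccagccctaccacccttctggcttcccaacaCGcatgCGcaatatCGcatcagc
*Peg12*: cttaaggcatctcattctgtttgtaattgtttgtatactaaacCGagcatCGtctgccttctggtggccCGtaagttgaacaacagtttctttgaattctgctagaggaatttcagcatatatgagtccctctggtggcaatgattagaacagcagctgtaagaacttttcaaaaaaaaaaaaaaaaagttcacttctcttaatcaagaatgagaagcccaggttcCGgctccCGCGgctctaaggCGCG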

How the data were processed

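The authors scanned the arrays and extracted them with Agilent Feature Extraction (11.0.1.1 in the file headers, 11.0.1.0 in the submitters' processing notes). The deposited processed signals are intensity values after background subtraction and linear dye normalisation. The deposited ratios are log10 of IP over input and equalled those of the scanner files (largest difference 0), but 2.73% of them differed from the log10 of the 2 processed signals by over 0.01. From the intensities, log2(IP/input) was computed, spots with the deposited outlier flags (a yes or no mark) were treated as missing, and arrays were centred on their median. Lines were compared in limma 3.58.1 (R 4.3.3; lmFit, eBayes) over all 88737 probes, or over 14580 locus means, with 8 residual degrees of freedom and Benjamini-Hochberg adjustment over all of them. A second fit took the 9 arrays of the divergent lines with the scan period as a term. Groups came from the sample labels, which call the replicates biological. The fit was tested on simulated data for CC9 mus against the mean of the other 3 lines. It missed most of the probes given the smallest shift tried and a smaller part of those given larger shifts. That smallest shift was larger than the locus differences given here, so a count of 0 does not show that lines are alike. Python 3.11.15 was used for promoters, for the shares of all probes and loci, for the IP means by locus and for the summary over the alternatives.

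Named were all loci, the highest and lowest probe of each, and every called probe. The probe above 2, A_68_P25169314 and A_68_P25158144 were named after their values were seen. The members and lists were chosen with earlier results of these data known. Alternatives were no centring, normexp (offset 50), deposited ratios, equal spread, outlier spots kept, dim inputs left out, each array left out, blocks for replicate, slide and scan period, other locus rules and the threshold on every array. The comparison within the later scan period, the divergent lines without the scan period term, the input values by locus and *Ndn* in place of *Snrpn* for the search of like loci were added after seeing the data.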

Additional observations from a re-analysis of the deposited data

How the results depend on the processing

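For CC9 mus against the mean of the other 3 lines, the count of called probes (1 of 27) was 0 without centring (beside 5.83% of all probes), with dim inputs left out (6.21%), with normexp (0.027%), with the slide or scan period as a block (0% and 0%) and within the later scan period (0%, an alternative chosen after seeing the data), and 5 with the scan period as a block on arrays of equal spread, beside 21.4% of all probes. Leaving out 1 array gave 0 to 7, with 7 beside 40.4% of all probes and 0 beside 0% to 0.14%. That block with equal spread gave 4 probes for any difference among the 4 lines, and for CC9 spretus, CC9 dunni and CC9 pahari against CC9 mus 3, 5 and 4, in place of 0, beside 9.65%, 7.86%, 19.5% and 14.6% of all probes. Equal spread alone gave 1 for CC9 dunni and 1 for CC9 pahari, beside 9.16% and 3.95%. Leaving out 1 array gave 0 to 4 for any difference, and 0 to 3, 0 to 8 and 0 to 6 for the 3 lines, the maxima beside 21.6%, 27%, 34% and 31.7% of all probes. For loci it gave 0 to 1 for any difference, 0 to 2 for CC9 mus against the rest, and 0 to 1, 0 to 2 and 0 to 2 for CC9 spretus, CC9 dunni and CC9 pahari, the maxima beside 32.8%, 50.3%, 36%, 42.2% and 46.3% of all loci. All counts above these minima came without CC9 mus replicate 1. With any other 1 array left out, at most 0.14% of all probes and 0.432% of all loci were called in these comparisons. The cause was not tested.

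The probe above 2 in CC9 mus was lost (0) without centring (beside 7.18% of all probes), with normexp (2.32%), with equal spread (3.74%) and with every array past the threshold (0.689%). The count was 0 to 5 with 1 CC9 mus array left out. Below −2 it was 0 to 1. Both maxima came without CC9 mus replicate 1, beside 17.7% and 10.8% of all probes. In CC9 pahari, 1 probe was above 2 with equal spread, beside 5.8% of all probes, and 0 to 1 with 1 array left out (1 without replicate 1 or 2, beside 5.37% and 5.46%). The input difference of −0.58 was −0.45 with normexp, −0.36 within the later scan period and −0.62 to −0.55 with 1 array left out.

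The differences of CC9 mus from the mean of the other 3 lines at *Magel2*, at *Peg12* and at A_68_P25169313 kept their direction in every alternative that kept the probes. Against CC9 mus alone, the sign for CC9 spretus turned in 1 alternative at each of these 2 loci, as given below.

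The replicate numbers were not taken to pair the samples. Between arrays of the same number *r* was −0.38 to 0.54 (median 0.13, 18 pairs) and between different numbers −0.48 to 0.43 (median −0.11, 36 pairs), ranges that overlap. With the replicate number as a block, limma called 1 probe of the domain for CC9 mus against the rest, as without it, and 0 in the other comparisons. Over all probes the block moved the count from 4056 to 7471.

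No locus difference was called in limma in a fit where its sign was turned. At *Ndn*, where it turned in 1 fit, the difference of CC9 mus from the rest was called without CC9 mus replicate 1 (1.05, adjusted p = 0.00603), as were those of CC9 dunni, CC9 pahari and CC9 spretus from CC9 mus (adjusted p = 0.00975, 0.0214 and 0.0197). Against the mean of the other lines, CC9 mus differed with the scan period block and equal spread by −0.23 at *Ndn*, 0.14 at *Ube3a* and −0.15 at *Mkrn3*. At *Ube3a* it was 0.09 with equal spread and −0.51 to 0.11 with 1 array left out. At *Mkrn3* it was −0.15 with the block and −0.15 within the later period. Against CC9 mus, the block with equal spread gave 0.15 (CC9 dunni), 0.32 (CC9 pahari) and 0.21 (CC9 spretus) at *Ndn*, 0.06 (CC9 spretus) at *Magel2*, 0.26 (CC9 pahari) and 0.22 (CC9 spretus) at *Mkrn3*, and −0.25 (CC9 pahari) and −0.18 (CC9 spretus) at *Ube3a*. The block alone gave 0.26 (CC9 pahari) and 0.22 (CC9 spretus) at *Mkrn3*. Equal spread gave −0.21 (CC9 pahari) and −0.13 (CC9 spretus) at *Ube3a*. normexp gave 0.04 (CC9 pahari) at *Mkrn3* and −0.03 (CC9 spretus) at *Ube3a*. The median over probes gave 0.03 (CC9 spretus) at *Peg12*. With 1 array left out *Ube3a* ran from −0.21 to 0.41 (CC9 pahari) and from −0.14 to 0.47 (CC9 spretus), the negative ends without CC9 mus replicate 3, and *Mkrn3* from −0.43 to 0.08 (CC9 pahari), the positive end without CC9 pahari replicate 2. The cause was not tested.

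Signal over background limits the dim probes. The called probe was left out with dim inputs, since its input was not well above background on CC9 mus replicate 3, and its IP was not well above it on that array, on CC9 dunni replicates 1 and 2 and on CC9 pahari replicate 1. Each mtDNA had 1 line, so line and mtDNA cannot be told apart. All CC9 mus arrays share a scan day with no other line, so for CC9 mus the scan day cannot be told apart from line and mtDNA. *Snrpn* had no probe, so the control region was not measured.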

Other observations

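The loci most like *Ndn* over the 12 arrays of equal spread, among 13458 loci of at least 3 probes outside the domain, were on chromosome 11 from 86070522 to 86071323 (Pearson's *r* = 0.951), chromosome X from 100551546 to 100551986 (0.944), chromosome 17 from 15517624 to 15518045 (0.936), chromosome 2 from 132512625 to 132512946 (0.929) and chromosome 1 from 188573095 to 188573355 (0.929), all in mm9. *Ndn* stood in for *Snrpn*, a choice made after seeing the data. These values are a description across arrays that share line and scan period, with no test.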
